A study of Equus caballus with 2 samples.

Results

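The genes described are those of the transforming growth factor beta (TGF-β) ligands, their receptors and the latent TGF-β binding proteins (LTBPs), chosen by gene symbol in equine endometrial fibroblasts. Of 10 symbols, 9 were found among the 21426 genes of the deposited counts: *TGFB1*, *TGFB3*, *TGFBR1*, *TGFBR2*, *TGFBR3*, *LTBP1*, *LTBP2*, *LTBP3* and *LTBP4*. No row carried the symbol *TGFB2*, which was not analysed here. Fibroblasts of 4 mares, on collagen-coated hydrogels in medium with 0.1% BSA, were left without supplementation (control, untreated cells) or given 10 ng/ml human recombinant TGF-β1 for 24 h (treated cells). The cells had been cultured to passage 3, and how many came from each mare was not determined here. Each condition is 1 library of pooled cells, prepared in droplets with a unique molecular identifier (UMI) that lets a transcript be counted once.

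TGF-β ligands are secreted in an inactive form, in which the cleaved propeptide still encloses the mature dimer. An LTBP linked to the propeptide anchors this latent complex to fibrillin fibrils of the matrix, and integrins or proteases release the ligand from it. The free ligand binds TGFBR2, a kinase that phosphorylates TGFBR1, and TGFBR1 in turn phosphorylates SMAD2 and SMAD3. In fibroblasts, the pathway is best known for driving the deposition of matrix. The recombinant TGF-β1 was added as a protein, so it adds no *TGFB1* transcript to the counts.

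After filtering, 3865 control cells with 210497250 UMIs and 4513 TGF-β1 cells with 219731144 UMIs remained, and the median cell held 50313 and 43142 UMIs, respectively. The libraries shared 6 barcodes. After thinning of every cell to 20000 UMIs, *VIM*, *COL1A1*, *COL1A2* and *COL3A1* were found in 100% of cells of both libraries, whereas *EPCAM*, *CDH1*, *PECAM1* and *PTPRC* were found in at most 0.133%. Some markers named for other cell types were common in both libraries, namely *DES* (98.2% of cells in each), *CD68* (56.9% and 57.9%) and *RGS5* (61.2% and 68.2%), while *CDH5* and *KCNJ8* were at 0 in the thinned cells. The 9 fibroblast markers did not share a direction. *VIM* had 4399 CPM in control and 2240 CPM in treated cells and *THY1* 216 and 87.5 CPM, whereas *COL1A1* had 5608 and 6376 CPM, *COL1A2* 4256 and 5084 CPM and *COL3A1* 4456 and 5583 CPM. The 6 epithelial markers summed to 134 counts per 1000000 UMIs (CPM) in control and 12.3 CPM in TGF-β1 cells, of which *KRT8* made up 114 and 4.48 CPM and *KRT7* 19.3 and 7.04 CPM. The 6 mural markers summed to 747 and 658 CPM. The fibroblast marker *PDGFRA* was detected in 53.7% of untreated against 25.7% of treated cells. The part of these differences in the values below was not tested.

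UMIs were summed over the kept cells of each library and compared as the log2 ratio of CPM, TGF-β1 over control. With 1 library per condition there was no replicate and no test, and treatment and library preparation cannot be told apart. The 95% intervals given in parentheses are exact binomial ones and cover counting error only. Those of ratios treat UMIs as independent and leave out the spread between cells. In pooled sums, a change in all cells and a change in the number of cells using a gene cannot be told apart. UMIs from the 3′ end do not scale with transcript length, but how well a transcript end is annotated does affect them, so levels were compared between libraries and not ranked between genes.

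The members differed in both directions. *LTBP1* and *TGFB3* were more than 2-fold higher in the TGF-β1 library, *TGFBR3* was more than 2-fold lower, *TGFBR1* was higher by less than 2-fold, and *TGFBR2*, *LTBP3* and *LTBP4* were lower. *TGFB1* and *LTBP2* differed little. Thus, 3 of the 9 members differed by more than 2-fold, against 6.91% of the 12116 genes whose mean reached 1 CPM (3.45% higher, 3.46% lower). At a limit of 1.5-fold there were 7 members, 3 higher and 4 lower, against 17.0% of these genes (7.64% higher, 9.36% lower). Of these, *TGFBR2* only just passed the limit, at 1.51-fold. The median log2 ratio of the 9 members was -0.08, that of the 12116 genes -0.01. Only *LTBP1* was past 2-fold among the 7 members whose mean reached 10 CPM, where 4.43% of 7658 genes were.

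**Figure D1:**
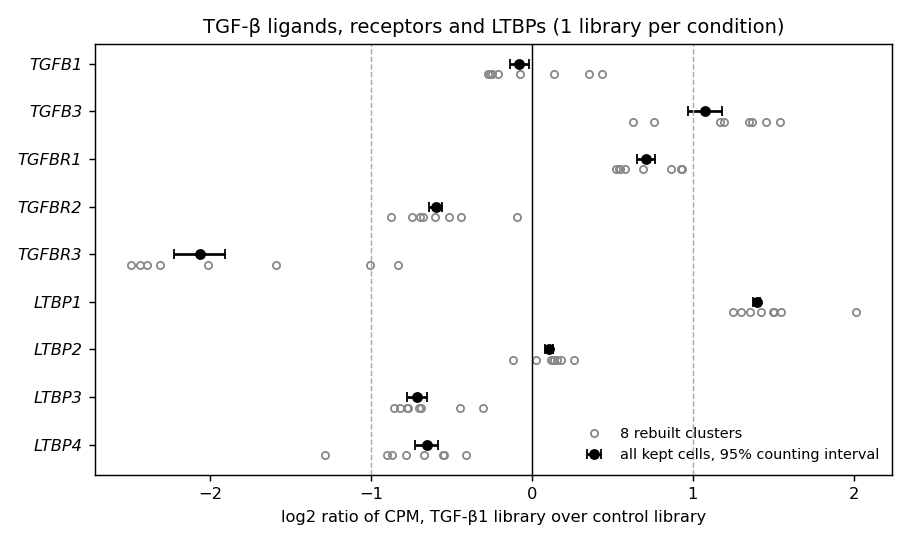
Log2 ratio of CPM, TGF-β1 over control library, for the 9 members over all kept cells (black points, bars are 95% counting intervals) and in each of 8 rebuilt clusters (open circles). Dashed lines mark a 2-fold difference. *LTBP1* lies right of 1 in all 8 clusters, whereas *TGFB1* lies on both sides of 0.

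Of the ligands, *TGFB1* encodes the same ligand that was added. It had 21.2 CPM (4458 UMIs) in the control library and 20.1 CPM (4407 UMIs) in the TGF-β1 library. The log2 ratio was -0.08 (-0.14 to -0.02), and 4834 of 7658 genes had a higher ratio. Its transcript was thus at nearly the same level in both sums. *TGFB3*, a ligand that signals through the same receptors, had 4.97 CPM (1046 UMIs) in control and 10.5 CPM (2298 UMIs) after TGF-β1. This was a log2 ratio of 1.07 (0.97 to 1.18), or 2.10-fold, which 359 of 12116 genes exceeded. Of the UMIs of both ligands, *TGFB3* held 19.0% (18.0% to 20.1%) in control and 34.3% (33.1% to 35.4%) in the TGF-β1 library. Both ligands together went from 26.1 to 30.5 CPM.

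The signalling receptors differed in opposite directions. *TGFBR1*, the type I receptor kinase that acts on the SMADs, had 18.9 CPM (3968 UMIs) in control and 30.8 CPM (6769 UMIs) in the TGF-β1 library. Its log2 ratio was 0.71 (0.65 to 0.77), or 1.63-fold, and 343 of 7658 genes had a higher one. *TGFBR2*, the type II receptor that binds the ligand first, had 58.0 CPM (12206 UMIs) in control and 38.3 CPM (8419 UMIs) after TGF-β1. Its log2 ratio was -0.60 (-0.64 to -0.56), 1.51-fold lower, and 480 of 7658 genes had a lower one. *TGFBR1* consequently made up 24.5% (23.9% to 25.2%) of the UMIs of both receptors in control and 44.6% (43.8% to 45.4%) after TGF-β1, while their sum went from 76.8 to 69.1 CPM.

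*TGFBR3*, or betaglycan, is a co-receptor without a kinase that presents ligand to TGFBR2. It had 7.85 CPM (1653 UMIs) in the control library and 1.88 CPM (413 UMIs) in the TGF-β1 library. This was the largest difference of all 9 members, a log2 ratio of -2.06 (-2.22 to -1.91), or 4.18-fold lower. Only 72 of 12116 genes had a lower ratio. Its mean over both libraries was 4.87 CPM and that of *TGFB3* was 7.71 CPM, so neither enters counts limited to genes with 10 CPM or more.

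The LTBPs did not share a direction either. *LTBP1*, which binds the latent complex and carries it into the matrix, had 134 CPM (28244 UMIs) in control and 353 CPM (77578 UMIs) in the TGF-β1 library. Its log2 ratio was 1.40 (1.38 to 1.42), or 2.63-fold, and 84 of 7658 genes had a higher one. *LTBP2*, which is fibril-bound like the others but is not known to bind latent TGF-β, had 116 CPM (24518 UMIs) in control and 125 CPM (27524 UMIs) in the treated library, which gives a log2 ratio of 0.10 (0.08 to 0.13).

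The remaining LTBPs were lower in the TGF-β1 library. *LTBP3*, which also carries latent TGF-β, had 24.1 CPM (5080 UMIs) in control and 14.7 CPM (3232 UMIs) after TGF-β1. The log2 ratio was -0.71 (-0.78 to -0.65), 1.64-fold lower. *LTBP4*, whose role includes elastic fibre assembly, had 18.7 CPM (3943 UMIs) in control and 11.9 CPM (2617 UMIs) after TGF-β1. The log2 ratio was -0.65 (-0.73 to -0.58), 1.57-fold lower. The sum of all 4 LTBPs was 294 CPM in control and 505 CPM after TGF-β1, and the share of *LTBP1* in their UMIs went from 45.7% (45.3% to 46.1%) to 69.9% (69.7% to 70.2%), while that of *LTBP3* went from 8.22% to 2.91%.

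To give the shares of cells with a transcript at equal depth, every cell was thinned at random to 20000 UMIs and cells with at least 1 UMI were counted. *LTBP1* was detected in 72.4% (71.0% to 73.8%) of untreated against 95.1% (94.4% to 95.7%) of treated cells, and the median went from 2 to 6 UMIs per thinned cell. Cells with at least 10 *LTBP1* UMIs made up 3.08% of untreated against 22.9% of treated cells. *LTBP1* was thus found both in more cells and at more UMIs per cell. In the cells where it was found, the mean was 3.39 UMIs in control and 7.02 UMIs after TGF-β1.

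For the low members, most cells with a UMI held only 1, so that their shares largely follow the sums and do not separate more cells from more transcript per cell. *TGFB3* was detected in 8.82% (7.95% to 9.76%) of untreated against 17.7% (16.6% to 18.8%) of treated cells, with a mean of 1.10 and 1.23 UMIs in those cells. *TGFBR3* was found in 12.8% (11.8% to 13.9%) and 3.15% (2.66% to 3.70%), with 1.19 and 1.12 UMIs. At these levels a cell without a UMI cannot be called a cell without the transcript. Without thinning, *TGFBR3* was detected in 27.8% of untreated against 7.40% of treated cells, and *TGFB3* in 20.8% and 33.3%.

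*TGFBR1* was detected in 28.4% (27.0% to 29.9%) of untreated against 41.3% (39.8% to 42.7%) of treated cells. *TGFBR2* was found in 61.8% (60.2% to 63.3%) and 49.3% (47.8% to 50.7%). The shares of the receptors thus differed in the same directions as their sums. *LTBP3* was found in 36.5% (35.0% to 38.1%) and 24.7% (23.5% to 26.0%), and *LTBP4* in 29.9% (28.5% to 31.4%) and 20.7% (19.5% to 21.9%). The intervals of both libraries overlapped for *TGFB1*, detected in 31.3% (29.8% to 32.7%) of untreated against 30.2% (28.8% to 31.5%) of treated cells, and for *LTBP2*, found in 82.2% (81.0% to 83.4%) and 83.5% (82.4% to 84.6%). No cell type that should lack these genes was present among the cells, so the share that free RNA in the droplets gives was not measured.

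**Figure D2:**
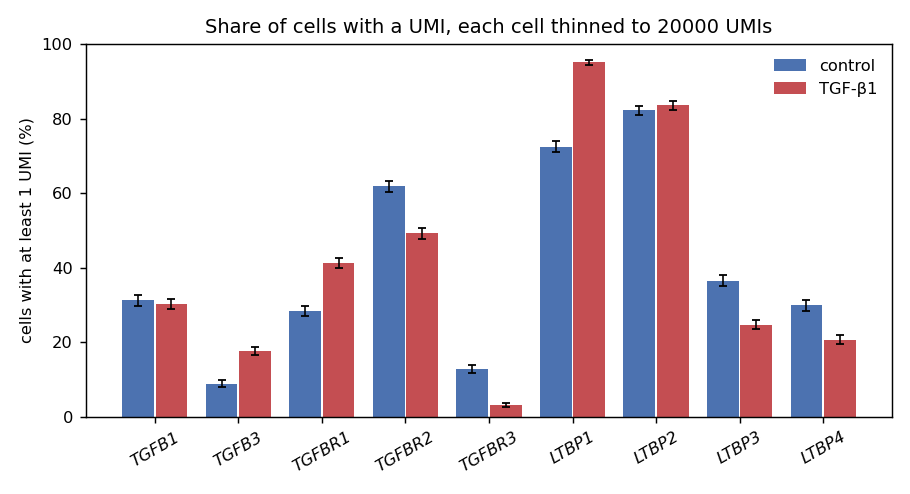
Share of cells with at least 1 UMI of each member, in percent, after thinning each cell to 20000 UMIs, in the control (blue, 3865 cells) and TGF-β1 library (red, 4513 cells). Bars show exact 95% binomial intervals. *LTBP1*, *TGFBR1* and *TGFB3* were found in more cells of the TGF-β1 library, *TGFBR2*, *TGFBR3*, *LTBP3* and *LTBP4* in fewer.

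Co-detection shows whether the transcripts occurred in the same cells. UMIs of both signalling receptors were found in 699 of 3865 thinned control cells (18.1%, 16.9% to 19.3%) and in 954 of 4513 TGF-β1 cells (21.1%, 20.0% to 22.4%). UMIs of neither were found in 27.9% and 30.6%. If the receptors were spread over cells independently, the product of their single shares would give 17.6% in control and 20.3% in TGF-β1 cells, so co-detection was 1.03 and 1.04 times that product, and both products lie inside the counting intervals. More cells with both receptors after TGF-β1 thus went with the higher share for *TGFBR1*.

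*TGFB1* was found together with both receptors in 5.80% (5.08% to 6.58%) of untreated against 6.58% (5.87% to 7.34%) of treated cells. *TGFB3* was found with both in 1.58% (1.21% to 2.02%) and 3.59% (3.07% to 4.17%). The intervals of both libraries overlapped for *TGFB1* and were separate for *TGFB3*. The product of the ligand's share and the share of cells with both receptors was 5.65% and 6.38% for *TGFB1* and 1.60% and 3.74% for *TGFB3*. All lie inside these intervals, so the values are near what those shares alone would give. Both ligands in the same cell were detected in 2.61% (2.13% to 3.17%) of untreated against 5.58% (4.93% to 6.29%) of treated cells, 0.948 and 1.05 times the product of their shares. The latent complex with an LTBP is assembled inside the cell that makes the ligand. *TGFB1* was found with *LTBP1*, *LTBP3* or *LTBP4* in 27.5% of untreated against 29.3% of treated cells, and *TGFB3* in 7.99% and 17.4%.

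Over all 36 pairs of members, co-detection lay between 0.804 and 1.16 times the product in control cells and between 0.936 and 1.23 times in TGF-β1 cells. The product lay inside the counting interval for 32 pairs in control and 35 in TGF-β1 cells. That interval is wide, since it ignores that the single shares come from the same cells. A product inside it therefore does not show independence. *TGFBR1* with *LTBP4* counted as inside in control cells. Yet *LTBP4* was found in 26.9% of control cells with *TGFBR1* and 31.1% of those without it. For members found in most cells, the quotient cannot be far above 1, so it says little there. *LTBP1* and *LTBP2* are such a pair, with quotients of 1.02 and 1.01. *LTBP2* was found in 84.1% of control cells with *LTBP1* and 77.2% of those without it, and in 84.3% and 68.6% in the treated library. Their UMIs per thinned cell had the highest Spearman correlation of the 36 pairs, 0.14 over 3865 control cells and 0.23 over 4513 treated cells, where the cells of a library share its preparation and differ in mare. The pairs whose whole counting interval lay above the product were *TGFBR1* with *LTBP1* (1.07 times), *TGFBR3* with *LTBP3* (1.16 times) and *LTBP3* with *LTBP4* (1.11 times) in control cells. In TGF-β1 cells it was *TGFB1* with *LTBP3* (1.12 times). For *TGFB3* with *LTBP4*, the interval lay below the product in control cells (0.804 times). These pairs were chosen after their values were seen. A thinned cell held UMIs of a median of 4 members in both libraries, with a mean of 3.64 in control and 3.66 in TGF-β1 cells, and UMIs of at least 7 members were found in 1.29% and 1.22% of cells.

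**Figure D3:**
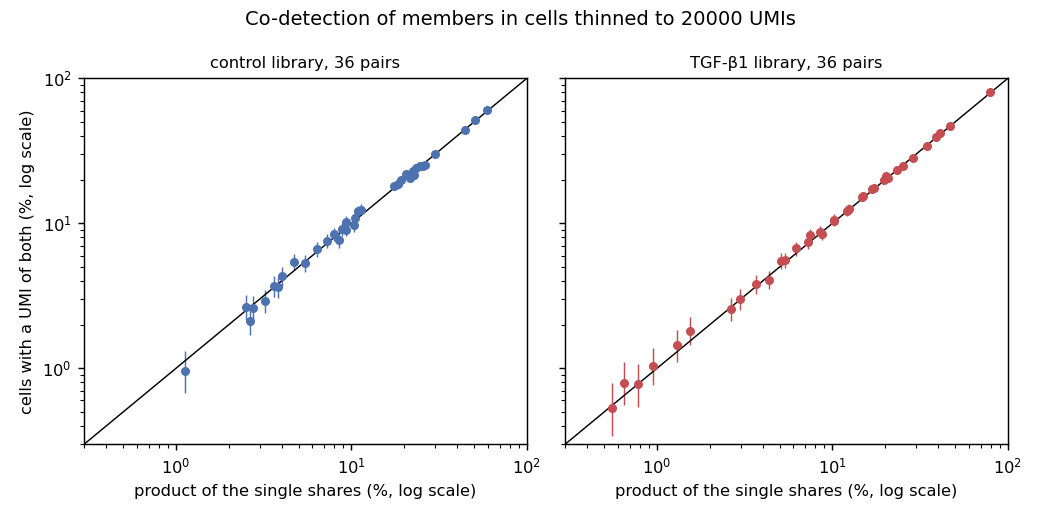
Share of thinned cells with UMIs of both members of a pair (vertical axis, percent, log scale, bars are exact 95% binomial intervals) against the product of the single shares (horizontal axis, percent, log scale), for 36 pairs in each library. The line marks equality, and points of both libraries lie between 0.804 and 1.23 times the product, with little room above the line for the pairs at the upper right.

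The kept cells were clustered anew to see how the members varied among them. This gave 8 rebuilt clusters, which are not replicates, may follow the mares in part and are not the clusters of the study. The 10 leading genes of cluster 2 included the epithelial markers *KRT7* and *KRT8*, and those of no cluster included a fibroblast marker. Of the 9 members, 7 had the same direction in all 8 clusters, against 42.7% of the 11017 genes that reached 1 CPM and had more than 3 UMIs in every cluster of both libraries. At 10 CPM it was 5 of 7 members against 47.3% of 7657 genes, so a single direction was common among all genes. *LTBP1* was more than 2-fold higher in each, with log2 ratios from 1.25 to 2.01, and *TGFBR1* was higher in each, from 0.53 to 0.93, with all 8 intervals above 0. *TGFB3* ranged from 0.63 to 1.54, with 7 intervals above 0. On the lower side, *TGFBR2* ranged from -0.88 to -0.09, *TGFBR3* from -2.49 to -0.83, *LTBP3* from -0.86 to -0.31 and *LTBP4* from -1.29 to -0.41. The interval lay below 0 in all 8 clusters for *LTBP4* and in 7 for each of the others, the exceptions being cluster 7 for *TGFBR2*, cluster 5 for *TGFBR3* and cluster 6 for *LTBP3*. The signalling receptors thus had opposite directions in each cluster, with the *TGFBR2* interval including 0 in cluster 7 (-0.39 to 0.19), which had only 106 control and 55 TGF-β1 cells.

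*TGFB1* did not share 1 direction. It was lower after TGF-β1 in clusters 0, 1 and 2, with log2 ratios of -0.21, -0.26 and -0.25, and higher in clusters 3, 5 and 6, with 0.14, 0.36 and 0.43, and these intervals all excluded 0. In cluster 6, *TGFB1* had 18.2 CPM in control and 24.6 CPM in TGF-β1 cells. Cluster 6 was cycling-like, as *CENPF*, *CDC20*, *CCNA2* and *ASPM* were among its 10 leading genes and all 10 cycling markers found exceeded their level in the other cells by more than 2-fold. It held 133 control and 161 TGF-β1 cells. These intervals treat UMIs as independent. Over thinned cells, however, the variance of *TGFB1* UMIs was 1.46 times their mean in control and 1.48 times in TGF-β1 cells. The intervals are therefore too narrow for the spread between cells, and the difference in direction between clusters was not tested. *LTBP2* was higher in 7 clusters and lower in cluster 5 (-0.12), with an interval above 0 in 6 clusters and below 0 in none.

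In both libraries, the lowest levels of *TGFBR1*, *TGFBR2*, *LTBP1* and *LTBP2* were those of cluster 5, whose leading genes included *MMP9*, *MMP1*, *CFD* and *C1R*. *TGFBR1* had 7.80 CPM there in control and 11.2 CPM in TGF-β1 cells, against a highest level of 24.9 CPM (cluster 1) and 37.2 CPM (cluster 3). *TGFBR2* had 26.1 and 14.2 CPM in cluster 5, against 79.3 CPM (cluster 3) and 53.3 CPM (cluster 7). *LTBP1* had 43.2 and 116 CPM, against 185 and 439 CPM in cluster 1. *TGFB1* went the other way in the TGF-β1 library, where its highest level, 33.7 CPM, was that of cluster 5. Cells of this cluster also had the fewest UMIs, with a median of 41980.5 in control and 33657 in TGF-β1 cells, and the part of depth in these levels was not tested. *TGFB3* was highest in cluster 4 in both libraries, with 9.15 and 14.2 CPM.

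**Figure D4:**
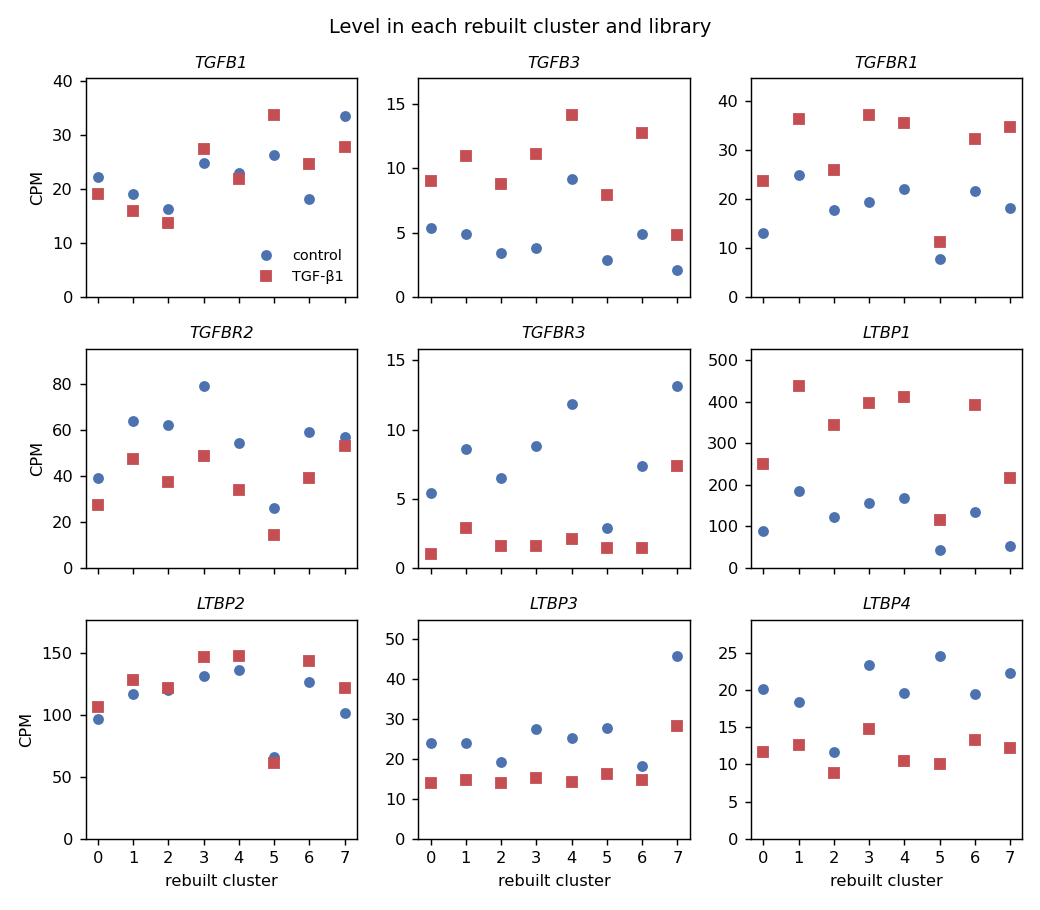
CPM of each member in the 8 rebuilt clusters, in control (blue circles) and TGF-β1 cells (red squares), 1 library per condition. The vertical axes start at 0 and differ between panels. Cluster 5 holds the lowest *TGFBR1*, *TGFBR2*, *LTBP1* and *LTBP2* of both libraries, and the squares of *LTBP1* lie above the circles in every cluster.

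Depth was also compared directly, since TGF-β1 cells had fewer UMIs. In cells above their library's median UMI count, *LTBP1* had 159 CPM in control and 397 CPM after TGF-β1, and in the other cells 92.1 and 276 CPM. *TGFBR1* had 20.9 and 33.0 CPM in the deeper cells and 15.4 and 27.0 CPM in the others. *LTBP1*, *LTBP2*, *TGFBR1* and *TGFBR2* were higher in the deeper cells of both libraries, whereas *TGFB1*, *TGFBR3*, *LTBP3* and *LTBP4* were lower there. *TGFB1*, for example, had 19.8 CPM in the deeper and 23.5 CPM in the other control cells, and 18.6 and 22.6 CPM in the treated library. The log2 ratios within the deeper and the other cells, 1.32 and 1.58 for *LTBP1* and 0.66 and 0.81 for *TGFBR1*, kept the direction of the pooled value. *TGFBR2* had log2 ratios of -0.58 and -0.65, and *TGFBR3* of -2.11 and -1.98.

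In the cycling-like cells, the intervals of all 3 receptors included 0 in both libraries. *TGFBR1* had 21.6 CPM in cycling-like and 18.7 CPM in other control cells (log2 ratio 0.21), and 32.2 and 30.7 CPM in the treated library (0.07). *TGFBR3* had 7.35 and 7.88 CPM in control (-0.10) and 1.48 and 1.90 CPM after TGF-β1 (-0.36), where the cycling-like value rests on 15 UMIs. *TGFBR2* had 59.3 CPM in cycling-like and 57.9 CPM in other control cells, and 39.0 and 38.3 CPM in the TGF-β1 library. *TGFB1* was the only ligand or receptor whose interval left out 0 in both libraries. Its log2 ratio of cycling-like over other cells was -0.23 (-0.46 to -0.01) in control and 0.31 (0.12 to 0.49) after TGF-β1. *TGFB3* was at nearly the same ratio after TGF-β1, 0.30 (0.03 to 0.55), and at -0.01 (-0.46 to 0.41) in control. *LTBP2* was higher in cycling-like cells of both libraries, by 0.12 (0.04 to 0.21) in control and 0.20 (0.12 to 0.28) after TGF-β1, and *LTBP1* by 0.16 (0.12 to 0.21) after TGF-β1, with 0.00 (-0.08 to 0.08) in control. *LTBP3* was lower in cycling-like control cells, with 18.2 against 24.4 CPM, and level after TGF-β1, with 14.7 CPM in both.

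The genes with the most similar pattern were sought over 16 sums, 1 for each rebuilt cluster and library, among 7213 genes. The sums share libraries and clusters, so the correlations of log2 CPM are a description only. The closest to *TGFBR1* were *GLG1* (Pearson r = 0.990), *TET3* (0.987) and *BMPR2* (0.985), and those to *TGFBR2* were *FCHSD2* (0.984), *FNBP1* (0.981) and *VPS13A* (0.980). *LTBP1* was most like *PXDN* (0.983), *COL12A1* (0.979) and *CEP128* (0.974), and *LTBP2* most like *SLC30A7* (0.988), *HOOK3* (0.988) and *PPFIA1* (0.986). *LTBP3* was most like *PCGF2* (0.978), *BAX* (0.963) and *IFNGR1* (0.957), and *LTBP4* most like *PLAT* (0.928), *NR2F1* (0.918) and *NAB2* (0.910). *TGFB1* had no equally close gene, with *COA4* (0.882), *TMEM100* (0.871) and *EFNB1* (0.869) nearest. Among the members, *TGFBR1* and *LTBP1* had r = 0.874, the highest value, *TGFB3* and *LTBP3* had -0.829, the lowest, and both signalling receptors had 0.398. *TGFB3* and *TGFBR3*, with a mean under 10 CPM, were not searched.

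Other genes of the pathway were taken from 4 lists and counted at a mean of at least 1 CPM. Among genes for storage and activation of latent TGF-β, 3 of 24 were more than 2-fold higher in the TGF-β1 library and 2 more than 2-fold lower, with a median log2 ratio of 0.22. These counts stand beside 3.45% and 3.46% of all genes at that level. The highest log2 ratios among genes of at least 10 CPM were those of *ASPN*, a small proteoglycan that binds TGF-β, from 32.9 to 122 CPM (1.89), and of the integrin subunits *ITGB3*, from 6.31 to 16.6 CPM (1.39), and *ITGB5*, from 69.7 to 122 CPM (0.81). *MMP9*, a protease with a mean of 7.86 CPM that also led cluster 5, was the other gene past 2-fold on this side (1.52). The lowest ratios among genes of at least 10 CPM were those of *ITGB8*, from 15.8 to 4.74 CPM (-1.73), *PLAT*, a plasminogen activator, from 28.7 to 10.4 CPM (-1.47), and *EFEMP2*, an elastic fibre protein (-0.48). *ITGB3*, *ITGB5* and *ITGB8* each pair with the alpha v subunit in integrins that bind the latent propeptide, and they did not share a direction.

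*FBN1*, the fibrillin to which LTBPs attach, had 612 CPM in control and 820 CPM in the treated library, with a log2 ratio of 0.42 (0.41 to 0.43). *FURIN*, the protease that cleaves the TGF-β propeptide, had 14.2 and 19.4 CPM (0.45, 0.38 to 0.52). *THBS1*, a matrix protein that activates latent TGF-β, had 791 and 1022 CPM (0.37, 0.36 to 0.38). All were higher after TGF-β1 by less than 2-fold. *ITGAV* was not found by symbol.

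Among regulators of the receptors, 3 of 17 genes were more than 2-fold higher and 0 more than 2-fold lower, against 3.45% and 3.46% of all genes, with a median log2 ratio of 0.10. The 3 were inhibitors of the pathway, *PMEPA1*, from 29.0 to 127 CPM (2.13), *LDLRAD4*, from 55.8 to 238 CPM (2.09), and *SMAD7*, which targets TGFBR1 for degradation, from 29.5 to 61.0 CPM (1.05, 1.00 to 1.09). Among genes of at least 10 CPM, the lowest were *DAB2*, an endocytic adaptor of the receptors, from 178 to 91.3 CPM (-0.96), *ENG*, an accessory receptor related to TGFBR3, from 37.2 to 32.2 CPM (-0.21, -0.25 to -0.16), and *ADAM17* (-0.06). *ENG* therefore did not share the size of the *TGFBR3* difference.

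Of 11 SMAD mediators, none was past 2-fold in either direction, and the median was 0.12. *SKIL*, a repressor of SMAD activity (0.72), *TRIM33* (0.41) and *SKI* (0.30) were highest. *SMAD3*, from 34.7 to 21.4 CPM (-0.70), and *SMAD2*, from 76.5 to 53.1 CPM (-0.53), which TGFBR1 phosphorylates, were the only ones lower. Among known response genes of the pathway, 7 of 16 were more than 2-fold higher and 0 more than 2-fold lower, against 3.45% and 3.46% of all genes, with a median of 0.73. The highest were *IGFBP3* (4.87), *TGFBI* (2.32) and *FN1* (1.65), and those below 0 were *JUNB* (-0.64) and *ID1* (-0.31). The lists were small and chosen with earlier results of these data known, so they are described by counts and medians alone.

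**Figure D5:**
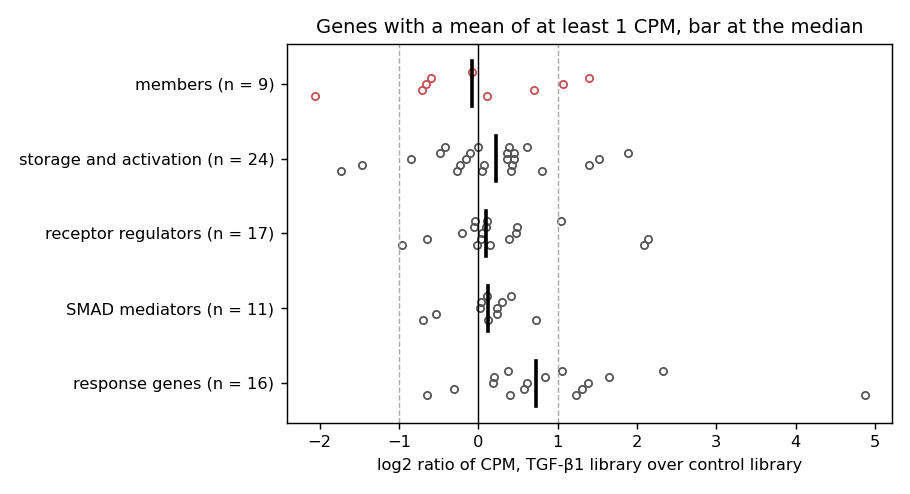
Log2 ratio of CPM, TGF-β1 over control library, for the 9 members and for genes of 4 pathway lists whose mean reached 1 CPM. Each circle is 1 gene, vertical offsets only separate circles, black bars are medians and dashed lines mark 2-fold. The members spread to both sides of 0 (median -0.08), whereas the response genes lie mostly to the right (median 0.73).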

How the data were processed

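The deposited values are raw UMI counts, 1 matrix of genes by barcodes per library, which the authors obtained by aligning reads to EquCab3.0 with Ensembl gene models in Cell Ranger (7.1.0 per the labels, 8.0.1 per the file headers). A barcode was kept if it had 20000 UMIs or more, 3500 genes or more and a mitochondrial share under 4%. The study's removal of doublets and assignment of mares by genotype were not repeated, and no doublets were removed here. Counts were summed over cells and scaled to CPM without a pseudocount (Python 3.11.15, pandas 2.3.3 and numpy 2.4.6), and intervals came from scipy 1.17.1. No test was made, because each condition had 1 library. The study's edgeR analysis was not repeated. Clusters came from Seurat 5.3.0 in R 4.3.3, in which the libraries were integrated by canonical correlation (2000 variable genes, 30 dimensions) and divided at resolution 0.5. Only clusters in which both libraries had 50 cells or more were compared. Ratios and their intervals were tested on simulated data, and thinning on some of the control cells.

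The members, lists and alternatives were chosen with earlier results of these data known. By rule, every member was named, as were *SMAD7*, *PMEPA1*, *FBN1*, *ENG*, *THBS1*, *ITGAV* and *FURIN*, the 3 highest ratios above 0 and the 3 lowest below 0 of each list at 10 CPM, and the 3 genes most like each member with a mean of at least 10 CPM. Another gene that the rule names is not reported here. *ITGAV*, *FKBP1A* and *TGIF2* were not found by symbol, nor were the markers *KRT18*, *KRT19* and *MKI67*. The rule that calls a cluster cycling-like, at least 3 markers over 2-fold, was set after seeing the data. No RefSeq entry of the reference table gave an Ensembl identifier, so no symbols were added. Intervals cover counting error only, and UMIs of a gene do not measure protein.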

Additional observations from a re-analysis of the deposited data

Results flagged for a closer look

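Barcodes that the filters left out, 519 of the control and 611 of the TGF-β1 library, lay outside the comparisons. Most had fewer than 20000 UMIs (481 and 603), with a median of 3728 and 6107 UMIs, and 242 and 446 had at least 4% mitochondrial UMIs. They still held UMIs of all 9 members. *TGFB1* had 29.1 CPM in those of the control and 47.8 CPM in those of the TGF-β1 library, and *TGFB3* had 8.45 and 20.9 CPM. *TGFBR1* had 35.9 and 73.8 CPM, *TGFBR2* 86.4 and 76.9 CPM, and *TGFBR3* 17.7 and 5.38 CPM. *LTBP1* had 275.0 and 712 CPM, *LTBP2* 225 and 247 CPM, *LTBP3* 56.5 and 38.6 CPM, and *LTBP4* 42.5 and 27.6 CPM. All 9 were higher than in the kept cells of the same library. How many of all genes were higher there was not counted, so this says nothing particular about the members. The log2 ratio of *TGFB1* in these barcodes was 0.72 (0.38 to 1.06), against -0.08 in the kept cells, and that of *TGFBR2* was -0.17 (-0.39 to 0.06), against -0.60. What sets these barcodes apart was not tested.

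*TGFB1* differed in direction between rebuilt clusters. The ratio of treated to control cells, as log2, was -0.21 in cluster 0, -0.26 in cluster 1 and -0.25 in cluster 2, but 0.14 in cluster 3, 0.36 in cluster 5 and 0.43 in cluster 6, each with a counting interval that leaves out 0. Each cluster has 1 library per condition, so the difference was not tested.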

How the results depend on the processing

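Over 10 alternatives (no filter on barcodes, 10000 as the lowest UMI count, 6% as the mitochondrial limit, the deepest cells past the 98th percentile dropped, size factors by median of ratios, per-cell CPM averaged, thinning to 20000 UMIs, totals without mitochondrial genes, no cycling-like cells and cluster shares set equal in both libraries), each of the 9 members kept its direction and 3 remained past 2-fold. Of these 90 values, 87 stayed inside the counting interval and 3, all of *LTBP1*, left it, at 1.42, 1.43 and 1.44. *TGFB1* ranged from -0.10 to -0.05. A limit of 1.5-fold in place of 2-fold raised the count of members from 3 to 7, by its own construction. *TGFBR2* fell under 1.5-fold without a filter on barcodes (log2 ratio -0.582), without the deepest cells (-0.580) and after thinning to 20000 UMIs (-0.577). The number of members with 1 direction in every cluster was 7 at resolution 0.5, 8 at 0.3 and 7 at 0.8. Without integration, only 1 cluster had 50 cells from both libraries, in which the number is 9 by construction. All 36 shares of cells moved with the thinning depth, as they must. Of 8 counts for the lists at another limit, 3 moved by more than 1.5 times. No paired analysis was possible because the mares, whose cells were pooled in both libraries, were not told apart here. At this depth, a cell without a UMI of a member is no evidence that the transcript was missing.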
